A study of Mus musculus with 18 samples.

Results

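The response of mouse embryonic fibroblasts to a satellite-targeted transcriptional activator was set against the response to satellite-targeted dCas9 with no activator attached. The quantity described is the change on induction in the dCas9-VPR line minus the change on induction in the dCas9-control line, on the log2 scale, and is called the interaction below. The rule took 12 of the series' 18 libraries, and 16126 of the 47937 gene IDs in the count table passed the filter on low counts. dCas9 is a Cas9 that binds DNA at a guide-matched site without cutting it, and the labels give the target in both lines as the MSR repeat, the major satellite of mouse. Each line expressed its protein under doxycycline control. The 4 groups were uninduced dCas9-control, dCas9-control with 10 ng/ml doxycycline for 24 h, uninduced dCas9-VPR, and dCas9-VPR with 10 ng/ml doxycycline for 6 h, with 3 libraries each. All groups were grown in tetracycline-free serum with hygromycin. The dose was the same in both lines but the time was not, so effector and time of induction cannot be told apart. A line difference unrelated to the effector also enters only where it changes the response, because each line was compared with its own uninduced libraries. Neither the clonal origin of a line nor the origin of the 3 libraries of a group (separate cultures or not) is labelled. If they share a culture, the p-values below measure technical spread only.

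The major satellite is a tandem repeat that packs the pericentromeres of mouse chromosomes into constitutive heterochromatin, a compact form marked by methylated histone H3 and the HP1 proteins. VPR is a fusion of activation domains that recruits Mediator, histone acetyltransferases and RNA polymerase II to the site where dCas9 binds. dCas9 alone occupies the same site without such domains, so it serves as the control for binding and for doxycycline. Because the satellite is the target, 1 repeat unit is shown. It was read from GENCODE release M21 as bases 343 to 576 of the spliced transcript ENSMUST00000181572.1 of Gm26870, on the minus strand at chr9:3000282-3038313 of GRCm38, and 232 of its 234 bases equal those of the next unit. Capitals mark bases within 15-base words that all 13 satellite gene models of the annotation hold on either strand.

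Major satellite unit: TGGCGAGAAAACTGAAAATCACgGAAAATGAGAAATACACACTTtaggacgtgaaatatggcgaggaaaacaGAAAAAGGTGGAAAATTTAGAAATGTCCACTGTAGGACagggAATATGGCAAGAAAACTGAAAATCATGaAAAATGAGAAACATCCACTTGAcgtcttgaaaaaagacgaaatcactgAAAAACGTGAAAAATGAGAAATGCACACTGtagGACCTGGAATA

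Of the 234 such words around the unit, 62 occurred in all 13 models and these covered 171 bases. The shared stretches are shorter than the 150 bp reads, so they do not show which reads could be placed on several models. Words of the repeat, on either strand, covered 73% to 100% of the spliced transcript of each model, and the models were summed.

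The libraries held 14928765 to 25262912 counts. Levels are CPM, counts scaled to a library of a fixed common size, after TMM scaling, given per library in the order of replicates 1, 2 and 3. Of 13 fibroblast markers, 10 averaged at least 1 CPM in each of the 4 groups, while Thy1 had no count in any of them and Lum and Fap stayed under 1 CPM. Markers of other cell types summed to 0.0378 to 0.343 CPM for hepatocyte and kidney tubule and 0.988 to 2.07 CPM for endothelium in the 9 libraries outside the induced activator group. The induced activator libraries had a count for 22641 to 23420 genes and the other 9 for 20107 to 21331. A gene is called below when the edgeR quasi-likelihood test gave an adjusted p under 0.05 (Benjamini-Hochberg over all 16126 genes).

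The interaction was called for 10214 genes, 63.3% of those tested, of which 4905 were higher (30.4%) and 5309 lower (32.9%). At least a 2-fold difference was found for 1229 higher (7.62%) and 1789 lower genes (11.1%). Of these, 308 higher and 0 lower genes averaged under 0.1 CPM in the uninduced libraries, and 638 higher and 293 lower genes 0.1 to 1 CPM. Genes this low can pass the filter through the induced activator group alone. With a minimum count of 50 the 2-fold counts were 539 higher and 1178 lower. When the test itself required more than 1.5-fold, 3192 genes were called (19.8%), of which 1092 were higher (6.77%) and 2100 lower (13%). The activator response on its own had 12152 calls (75.4%) and the dCas9 response 37 (0.229%), while 1555 genes had an unadjusted p under 0.05 in the dCas9 response. Over the 9640 genes of at least 5 CPM in every group, the central 95% of dCas9 changes lay between -0.14 and 0.17 and that of activator changes between -1.35 and 0.67. The central 95% of the interaction over these 9640 genes lay between -1.35 and 0.65, close to the range of the activator line alone. Over all 16126 genes tested, many of them lower in level, the median standard error of a gene's change was 0.08 in either line and 0.12 for the interaction. Those medians are therefore not to be set against the ranges of the 9640 genes.

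**Figure D1:**
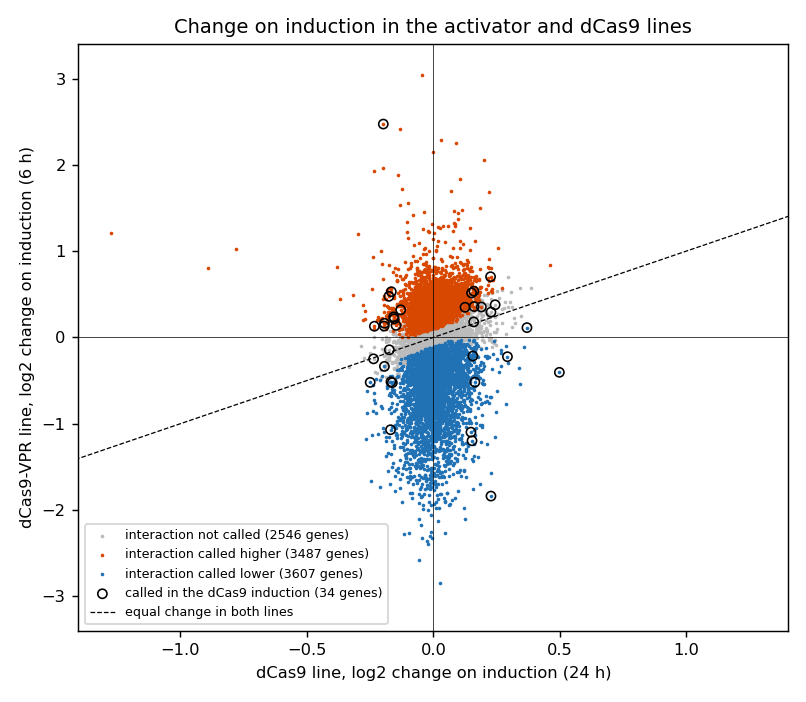
Log2 change on induction in the dCas9-VPR line (vertical) against the dCas9 line (horizontal) for 9640 genes of at least 5 CPM in every group, 1 point a gene; the axes have different ranges. Points spread along the vertical axis and stay close to 0 on the horizontal one, and 34 circled genes were called in the dCas9 line.

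The split between higher and lower calls rests on how libraries are scaled to each other. Of the called genes, 48% were higher with TMM, 51.7% with DESeq2 size factors, 56.9% with upper quartiles, 26.4% with total counts and 7.55% when libraries were scaled to mitochondrially encoded genes. The median interaction over all genes was -0.007 with TMM, 0.036, 0.101, -0.246 and -0.704 with the others in that order. Directions below are relative to TMM scaling, and medians of gene lists are to be read against these shifts. TMM factors were 0.865 to 0.9179 in the induced activator libraries and 1.025 to 1.064 in the other 9. With no RNA of known amount added, a change in total RNA per cell cannot be told apart from these shifts.

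The satellite, the target of both proteins, rose in the activator line. The 13 gene models summed to 7.25, 7.76 and 5.76 CPM in uninduced dCas9 libraries and to 2.6, 1.46 and 2.53 CPM in induced ones. In the activator line they summed to 31, 29.9 and 32.6 CPM before induction and to 4712, 3889 and 3321 CPM after it. The 4 groups did not overlap: the uninduced activator line lay above the uninduced dCas9 line, the induced dCas9 libraries lay lowest, and the induced activator libraries lay highest. The interaction was 8.70 on the log2 scale (SE 0.52, 95% interval 7.50 to 9.89, adjusted p = 4.59e-07). It held a rise of 7.0 in the activator line (95% interval 6.64 to 7.37) and a change of -1.69 in the dCas9 line (-2.75 to -0.64) whose adjusted p was 0.261. That dCas9 change passed the threshold under 3 alternatives, given with the processing alternatives at the end. In the activator line each of the 13 models had more counts after induction than before, from 0 to 43 counts for Gm10720 to 1250 to 129551 counts for Gm10800, summed over 3 libraries. Models with few counts elsewhere passed the filter through the induced activator group, so calls of single models are not counted. The largest contributor, Gm10800 at chr2:98666547-98667301, had 4.87, 5.1 and 3.43 CPM in uninduced dCas9, 1.25, 0.73 and 1.47 CPM in induced dCas9, 18.5, 17.4 and 20.1 CPM in uninduced activator and 2888, 2346 and 2042 CPM in induced activator libraries.

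**Figure D2:**
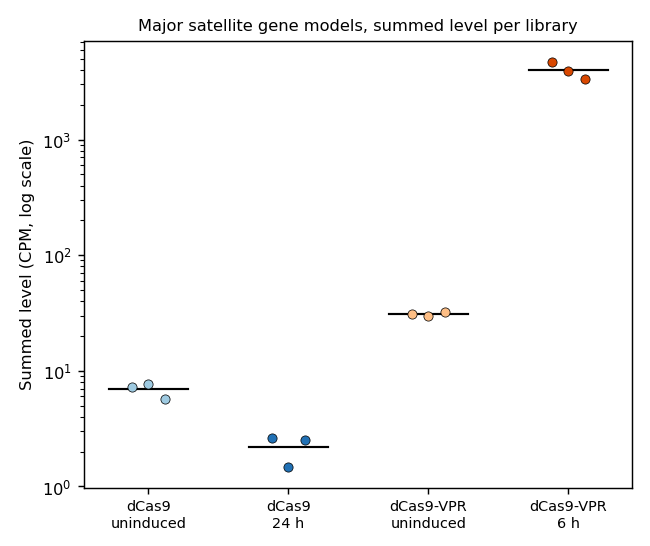
Summed level of the 13 major satellite gene models in each of the 12 libraries (CPM, log scale), by group; lines are group means. The induced dCas9-VPR libraries lie at 3321 to 4712 CPM and the induced dCas9 libraries at 1.46 to 2.6 CPM.

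Among genes that were measured at 2 CPM or more in all 4 groups, the 10 largest higher interactions ranged from 2.48 (Star, which carries cholesterol into mitochondria for steroid synthesis) to 5.30 (Col20a1, a fibril-associated collagen chain). They were Col20a1, Serpinc1 (antithrombin of blood plasma), Pygm (muscle glycogen phosphorylase), Vwce, Tg (thyroglobulin), Cdk5r1 (the p35 activator of the neuronal kinase Cdk5), Efcab8, Spx (the peptide hormone spexin), Lat2 (an adaptor of immune cell signalling) and Star. Col20a1 at chr2:180986535-181018363 had 2.07, 2.92 and 2.07 CPM in uninduced and 2.18, 2.28 and 2.08 CPM in induced dCas9 libraries. It had 2.54, 2.49 and 3.06 CPM in uninduced and 96.7, 100.3 and 89.2 CPM in induced activator libraries. Only the induced activator libraries were high, and the other 9 overlapped between 2.07 and 3.06 CPM. The interaction was 5.30 (SE 0.22, adjusted p = 1.32e-29), made of 5.16 in the activator line and -0.14 in the dCas9 line.

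Cdk5r1 at chr11:80477023-80481184 was the most abundant of these genes outside the induced activator group. It had 7.48, 7.37 and 7.25 CPM and 6.29, 8.42 and 6.65 CPM in uninduced and induced dCas9 libraries, and 6.74, 6.9 and 6.36 CPM and 58.4, 58 and 49.6 CPM in uninduced and induced activator libraries, with an interaction of 3.09 (SE 0.14, adjusted p = 3.53e-27). Pygm went from 3.71, 4.04 and 4.26 CPM to 39.3, 38.2 and 34.9 CPM in the activator line and from 3.35, 3.6 and 4.01 CPM to 2.7, 3.39 and 3.02 CPM in the dCas9 line, an interaction of 3.48. For all 10 genes the induced activator libraries lay above the other 9 with no overlap, and none was called in the dCas9 line. Adjusted p-values of the 10 interactions ran from 1.97e-14 (Star) to 1.32e-29 (Col20a1).

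Of the 10 largest lower interactions 9 are described. They ranged from -2.88 for Has2, the main hyaluronan synthase of fibroblasts, to -2.24 for Apln, the ligand of the apelin receptor. The others were Lurap1l, Irs1 (the adaptor that carries insulin and IGF receptor signals), Cdc42ep2 (an effector of the GTPase Cdc42), Osr1 (a mesenchymal transcription factor), Bahcc1, Medag and Myc. Has2 at chr15:56665627-56694539 had 42.3, 41.6 and 42.8 CPM in uninduced and 45.5, 43.6 and 40.2 CPM in induced dCas9 libraries. In the activator line it had 47.6, 47.6 and 49.6 CPM before and 5.58, 7.22 and 7.26 CPM after induction. The 3 induced activator libraries lay below the other 9, which spanned 40.2 to 49.6 CPM, and the interaction was -2.88 (SE 0.09, adjusted p = 6.43e-36).

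Irs1 at chr1:82233101-82291416 was measured most precisely of these. Its levels were 301, 308 and 303 CPM in uninduced dCas9, 302, 298 and 297 CPM in induced dCas9, 236, 228 and 228 CPM in uninduced activator and 42, 41 and 48.6 CPM in induced activator libraries. The activator line started lower than the dCas9 line and fell well below it, with an interaction of -2.37 (SE 0.05, adjusted p = 9.81e-44). Myc, a transcription factor of growth and biosynthesis, went from 117, 124 and 121 CPM to 22.2, 29.7 and 24.6 CPM in the activator line and from 101, 106 and 108 CPM to 115, 103 and 97 CPM in the dCas9 line, an interaction of -2.25 (adjusted p = 1.06e-08). For these 9 genes the induced activator libraries lay below all others, and the dCas9 changes lay between -0.03 (Apln) and 0.17 (Lurap1l), none of them called.

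**Figure D3:**
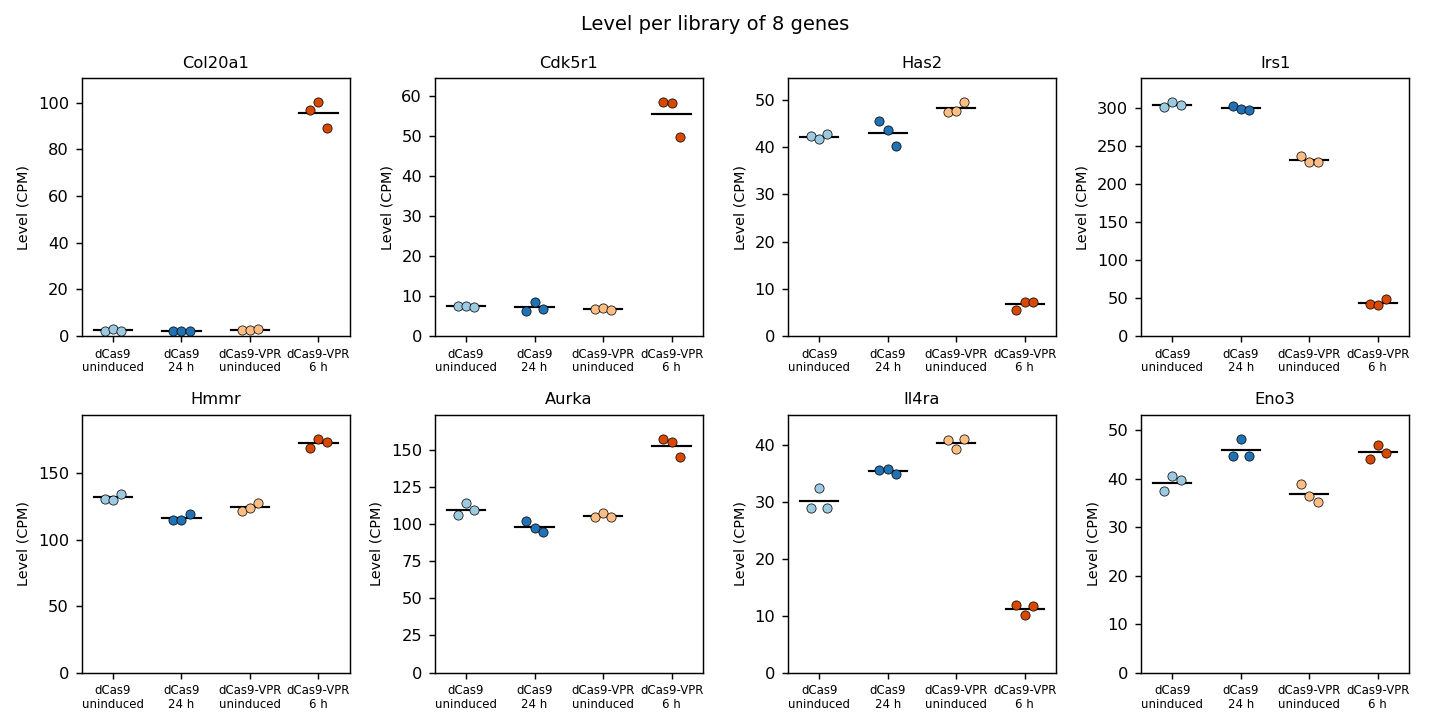
Level in CPM (vertical axes from 0) of 8 genes in each of the 12 libraries by group; lines are group means. Col20a1 and Cdk5r1 are high and Has2, Irs1 and Il4ra low only in the induced dCas9-VPR libraries; Hmmr and Aurka go down in one line and up in the other; Eno3 goes up in both.

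Some genes were near silence everywhere except after activator induction. Over all 47937 IDs, without the filter, 331 were under 0.1 CPM in the uninduced activator libraries and at 1 CPM or more in all 3 induced ones, and 222 of these are protein-coding. The same rule found 0 IDs in the dCas9 line, and 0 IDs that went the opposite way in either line. Of the 331, 77 had no count at all before induction. Such a gene passed the filter only through the induced activator group, so its presence among the called genes was fixed by its level. The 6 most abundant named protein-coding genes of this kind that were under 0.1 CPM in all 3 other groups were Zfp385b, Scml4, Glyat, Myh15, Myo3b and Ccdc125. Zfp385b, a zinc finger gene, reached 18.6, 19.9 and 18.4 CPM from 6 counts in the 3 uninduced activator libraries, a ratio of 213 (95% counting interval 97.5 to 582). Glyat, a glycine acyltransferase of liver and kidney mitochondria, reached 14.7, 17.3 and 15.7 CPM from 1 count, a ratio of 1068 whose counting interval runs from 191 to 42236. In the dCas9 libraries Glyat had 1 count before and 1 count after induction, and Zfp385b had 3 and 0 counts. Intervals cover counting error only.

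Some markers of other cell types were also higher in the induced activator libraries. The 12 hepatocyte and kidney tubule markers summed to 24.1 to 27 CPM in the induced activator libraries. Most of it was Glyat (15.9 CPM) and Keg1 (7.1 CPM), while Apoa2 stayed at 0.0219 CPM and 5 of the 12 had no count there. This list was chosen with earlier results of these data known and holds Glyat, described above, so its sum is not separate support. The 8 endothelial markers summed to 22.1 to 28.9 CPM against at most 2.07 CPM elsewhere, almost all of it Pecam1 at 21 CPM, while Cdh5 stayed at 0.0181 CPM and Emcn had no count. The 12 muscle markers summed to 15.7 to 17.3 CPM against 7.24 to 10.9 CPM elsewhere, with Ttn at 4.0 CPM from 0.205 CPM in the uninduced activator group. Tnnt2, the most abundant of them before induction, went the other way to 3.97 CPM from 6.51 CPM, and Myod1 and Myf5 had no count. The 10 blood cell markers summed to 9.91 to 10.4 CPM against 6.2 to 8.46 CPM, with Lyz2 at 1.94 CPM from 0.0136 CPM. The most abundant blood cell markers were not higher, with Cd68 at 4.26 CPM from 4.48 CPM and Csf1r at 2.25 CPM from 2.89 CPM. The 10 neuron and glia markers summed to 37.6 to 44.1 CPM against 57.3 to 64.1 CPM in the other 9. Mbp and Tubb3 made up most of that sum and were lower, at 13.6 and 20.9 CPM from 26.5 and 33.9 CPM, while the glial gene Gfap was higher, at 6.49 CPM from 0.0651 CPM. Of 10 epithelial markers 1 reached 1 CPM in any group, and their sum was 3.09 to 4.27 CPM over all 12 libraries. The part of other cell types in the result was not tested.

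The dCas9 response, though small, was not blank. Of its 37 called genes, 18 rose and 19 fell, and 34 changed by less than 1.5-fold, with a median size of 0.18 on the log2 scale. The count moved with single libraries, from 20 without replicate 1 of uninduced dCas9 to 104 without replicate 3 of induced activator. The strongest call was Rpl7l1, a ribosomal protein L7-like gene, at 122, 129 and 119.5 CPM before and 166, 158 and 156 CPM after dCas9 induction, a change of 0.37 (adjusted p = 9.00e-12), against 133, 136 and 131 CPM and 147, 145 and 142 CPM in the activator line. It was chosen after its values were seen. Among the 37, 35 were also called in the activator line (94.6% against 75.4% of all genes tested). These shares were not matched for level, and 34 of the 37 were at 5 CPM or more in every group. In 18 of the 35 the signs were opposite and in 17 the same, and 5 of the 17 had no called interaction.

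Of the 11 genes that fell with dCas9 and rose with the activator, 6 belong to the list of G2 and mitosis genes: Aurka, Bub1b, Cdc20, Hmmr, Plk1 and Prc1. In that list 6 of 36 genes fell with dCas9, against 19 of all 16126 genes tested (0.118%). Without single libraries, the dCas9 calls of Hmmr and Cdc20 were kept in all 12 fits, and that of Aurka was lost in 4 of 12 (adjusted p up to 0.263). The 5 genes outside the list were Racgap1, Arhgap19, Peg10, Gm24187 and AC149090.1. AC149090.1, an unplaced-scaffold model, had 160, 167 and 163 CPM and 146, 138 and 144 CPM in the dCas9 line and 228, 223 and 233 CPM and 1254, 1275 and 1267 CPM in the activator line, an interaction of 2.67. Hmmr, a spindle-associated hyaluronan receptor, had 130.5, 130 and 134 CPM before and 115, 115 and 119 CPM after dCas9 induction, and 122, 124 and 127 CPM before and 169, 176 and 173 CPM after activator induction. The induced libraries lay below their controls in one line and above them in the other, with no overlap in either. The changes were -0.18 (adjusted p = 0.00231) and 0.48 (adjusted p = 2.44e-20), and the interaction was 0.65 (SE 0.05). Aurka, the mitotic kinase Aurora A, had 106, 114 and 109.5 CPM and 102, 97.4 and 94.8 CPM in uninduced and induced dCas9 libraries. It had 105, 108 and 105 CPM and 158, 155 and 145 CPM in the activator line, and its interaction was 0.70. Cdc20, the activator of the anaphase-promoting complex, had changes of -0.19 and 0.16, and the retrotransposon-derived Peg10 had -0.16 and 0.24. The rise of each of these 4 genes in the activator line turns to a fall when libraries are scaled to mitochondrially encoded genes, and that of Cdc20 also with total counts.

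The other 7 genes of opposite sign rose with dCas9 and fell with the activator, among them Gpr176, Il4ra, Rbm47 and Ccn1. The dCas9 call of Gpr176 was kept in all 12 fits without 1 library, while those of Il4ra and Rbm47 were lost in 8 of 12 (adjusted p up to 0.275 and 0.237) and that of Ccn1 in 3 of 12. Il4ra, the interleukin-4 receptor chain, had 28.9, 32.4 and 29 CPM before and 35.6, 35.7 and 34.9 CPM after dCas9 induction, and 40.8, 39.4 and 41.1 CPM before and 11.9, 10.1 and 11.6 CPM after activator induction. Its dCas9 change was 0.23 (adjusted p = 0.0368), its activator change -1.84 and its interaction -2.07 (SE 0.09, adjusted p = 7.57e-30). Gpr176, an orphan receptor of the circadian pacemaker, changed by 0.50 with dCas9 and -0.40 with the activator. Rbm47 changed by 0.29 and -0.22, and Ccn1, a matricellular target of YAP, changed by 0.16 and -0.52.

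With TMM scaling, 5 genes changed the same way in both lines without a called interaction. Ass1 (argininosuccinate synthase), Eno3 (the muscle enolase) and Prune2 rose in both lines with no called interaction, and the histone genes Hist2h4 and Hist1h3d fell in both. Eno3 had 37.5, 40.5 and 39.7 CPM and 44.6, 48.3 and 44.6 CPM in the dCas9 line and 39, 36.5 and 35.1 CPM and 44.2, 46.9 and 45.3 CPM in the activator line, with an interaction of 0.07 (SE 0.07, adjusted p = 0.422). Hist2h4 had 147, 163 and 150.1 CPM and 132, 128 and 130.4 CPM in the dCas9 line and 156, 154 and 150.3 CPM and 120.1, 129.9 and 138 CPM in the activator line, with an interaction of -0.01 (SE 0.05, adjusted p = 0.862). The dCas9 calls of Ass1, Eno3 and Prune2 were lost in 4, 2 and 3 of the 12 fits without 1 library. A missing call does not show that the 2 responses were equal, and for some of these genes it rests on the scaling. With total counts the same test called the interaction of Eno3 (-0.17, adjusted p = 0.0387), Prune2 (-0.22, adjusted p = 0.00079) and Hist1h3d (-0.21, adjusted p = 0.000894). Scaled to mitochondrially encoded genes it called those genes and also Ass1 (-0.56, adjusted p = 1.59e-07). The activator change of Ass1, Eno3 and Prune2 then became a fall. No gene met the rule for a dCas9 change that the interaction called and the activator line did not.

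Some gene lists stood mostly higher, some mostly lower and some had calls both ways, as the plot of list medians shows. Counts are given against 30.4% of all tested genes called higher and 32.9% called lower, with a median interaction of -0.01. The feedback inhibitors of the ERK pathway, which carries growth factor signals, had the lowest median of the lists plotted. All 14, such as the phosphatases Dusp6 and Dusp4 that dephosphorylate ERK, were lower (median -1.46). Counts of higher genes in a list can include genes that passed the filter only through the induced activator group. Dusp6 had 77.6, 73.9 and 75.9 CPM and 81.1, 76.8 and 79.8 CPM in the dCas9 line, 100.2, 96.8 and 101 CPM in uninduced activator and 25.6, 25 and 26.8 CPM in induced activator libraries, an interaction of -2.00. Dusp4 had an interaction of -1.99. Of 20 receptor tyrosine kinases 14 were lower and 2 higher (median -0.40), with Mertk at -1.20, Pdgfra at -1.13, Erbb3 at 0.78 and Ddr2 at 0.18. Of 27 immediate early genes 12 were lower and 4 higher (median -0.20). Myc (-2.25) and Fosl2 (-1.72) lay at one end, and Egr1 (1.85) and Fos (1.5) at the other. Egr1, a zinc finger factor induced by serum, had 81.2, 79 and 79.9 CPM, 75.3, 73.3 and 71.9 CPM and 88.9, 88.4 and 93.1 CPM in the 3 other groups and 285, 309 and 299 CPM after activator induction, so its direction was opposite to that of the ERK feedback genes.

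Of 24 TGF-beta and BMP response genes 17 were lower and 3 higher (median -0.73). The corepressor Tgif1 (-2.12) and the inhibitor of differentiation Id2 (-1.74) were lower and the latent TGF-beta binding protein Ltbp2 (3.65) was higher. Grem1, a secreted BMP antagonist, went from 0 counts to 1.37 CPM in the activator line, and is among the 3 only because it passed the filter through the induced activator group. Of 23 NF-kB pathway and target genes 14 were lower and 5 higher (median -0.60). Tnfaip3, the A20 feedback inhibitor, had 49.7, 54.5 and 52.4 CPM before and 12, 12.1 and 12.2 CPM after activator induction (interaction -2.24), and the cytokine Csf1 had 564, 562 and 559 CPM before and 132, 142 and 154 CPM after (interaction -2.00). Both were lower in each induced activator library than in any other library. Il6 (2.16) and Traf1 (1.96) were higher, from levels near 1 CPM or below. Of 14 interferon-stimulated genes 4 were lower, among them Irf1 (-1.24) and Parp14 (-0.89), and 0 higher (median -0.09). With upper quartiles 3 were higher and 3 lower (median 0.02).

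Of 17 circadian clock genes 12 were lower and 1 higher (median -0.95), with the repressor Nr1d1 at -2.11 and Nfil3 at -1.53 against Rora at 1.13. Of 21 Hox genes, which set position along the body axis, 14 were lower and 1 higher (median -0.72), with Hoxa2 at -2.68, Hoxa3 at -1.44 and Hoxa7 at 0.93. Of 347 Zfp zinc finger genes 199 were lower and 52 higher (median -0.39). Zfp36l1 (-1.93) and Zfp882 (-1.89) were lower, while Zfp459, which like Zfp385b passed the filter only through the induced activator group, had 0.0136 CPM before and 1.31 CPM after activator induction. Of 20 snoRNA host genes and nuclear noncoding RNAs 16 were lower and 2 higher (median -0.79). Snhg5 had 35, 37 and 37 CPM and 36.8, 38.1 and 35.1 CPM in the dCas9 line and 38.6, 42.7 and 40.2 CPM and 13.3, 13.8 and 14.4 CPM in the activator line (interaction -1.56). Gas5 stood at -1.34 and Malat1 at 0.21, although Malat1 is at -0.03 with total counts and -0.49 when scaled to mitochondrially encoded genes.

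Genes of protein synthesis, turnover and respiration formed the upper end and were narrow in spread. Of 81 cytosolic ribosomal protein genes 78 were higher and 0 lower, with a median of 0.52 that becomes 0.28 with total counts and -0.18 when scaled to mitochondrially encoded genes. The middle 50% of these genes lay between 0.47 and 0.56, with Rpl37 at 0.64 and Rps2 at 0.63. Ribosomal protein genes share reads with many processed pseudogenes, so single members are uncertain. Of 35 nuclear genes of oxidative phosphorylation 34 were higher and 0 lower, and of 31 proteasome subunits 30 were higher and 0 lower, both with medians of 0.52 that become 0.28 and -0.18 under the same scalings. The cytochrome bc complex subunit Uqcrc2 stood at 0.63 and the ATP synthase subunit Atp5a1 at 0.63. The proteasome ATPase Psmc4 had 82.6, 82.8 and 86.2 CPM, 81.8, 78.4 and 79.5 CPM and 90.6, 91.3 and 83.2 CPM in the 3 other groups and 146, 142 and 131 CPM after activator induction (interaction 0.73), and Psmd2 stood at 0.65.

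Of 15 mitochondrially encoded genes 11 were higher and 0 lower (median 0.60, which becomes -0.09 by construction when libraries are scaled to them). The largest were the ribosomal RNAs mt-Rnr2 (1.80) and mt-Rnr1 (1.19). mt-Rnr2 had 143, 109 and 90.3 CPM in uninduced and 55.1, 75.6 and 69.6 CPM in induced dCas9 libraries, and 76.4, 70.2 and 87.4 CPM in uninduced and 178, 158 and 137 CPM in induced activator libraries. Its spread among uninduced dCas9 libraries was wide, and the dCas9 change of -0.78 was not called. The library kit removes ribosomal RNA, so the level of these RNAs also depends on how completely that was done, which was not tested.

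Cell cycle lists also leaned higher. Of 42 G1/S and replication genes 32 were higher and 6 lower, with a median of 0.35 that becomes 0.11 with total counts and -0.35 when scaled to mitochondrially encoded genes. The replicative helicase subunits Mcm4 (0.73) and Mcm7 (0.65) were higher, and thymidine kinase Tk1 (-0.88) and E2f2 (-0.80) lower. Of 36 G2 and mitosis genes 26 were higher and 8 lower, with a median of 0.32 that becomes 0.08 and -0.38 under those scalings. That median combined 0.20 in the activator line with -0.10 in the dCas9 line. Ccnb2 (cyclin B2) had 60.6, 60.5 and 59.7 CPM and 54.4, 55.9 and 55.5 CPM in the dCas9 line and 55.4, 53.8 and 53.4 CPM and 92.1, 88.6 and 80.8 CPM in the activator line (interaction 0.81). Cdc25c stood at 0.80, Cdc25b at -0.87 and Kif20b at -0.70. Of 61 replication-dependent histone genes 14 were higher and 6 lower, with a median of 0.12 that combined -0.02 in the activator line with -0.13 in the dCas9 line and becomes -0.11 with total counts and -0.57 when scaled to mitochondrially encoded genes. Hist1h2ac stood at 0.54 and Hist1h2bc at 0.50, against Hist2h2ab at -0.41 and Hist1h2af at -0.32. In the dCas9 line 3 of the 61 fell, Hist1h1b, Hist1h3d and Hist2h4, against 0.118% of all genes, and the call of Hist1h3d was lost in 3 of the 12 fits without 1 library. Histone genes of a cluster are near-identical copies and single members are uncertain.

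**Figure D4:**
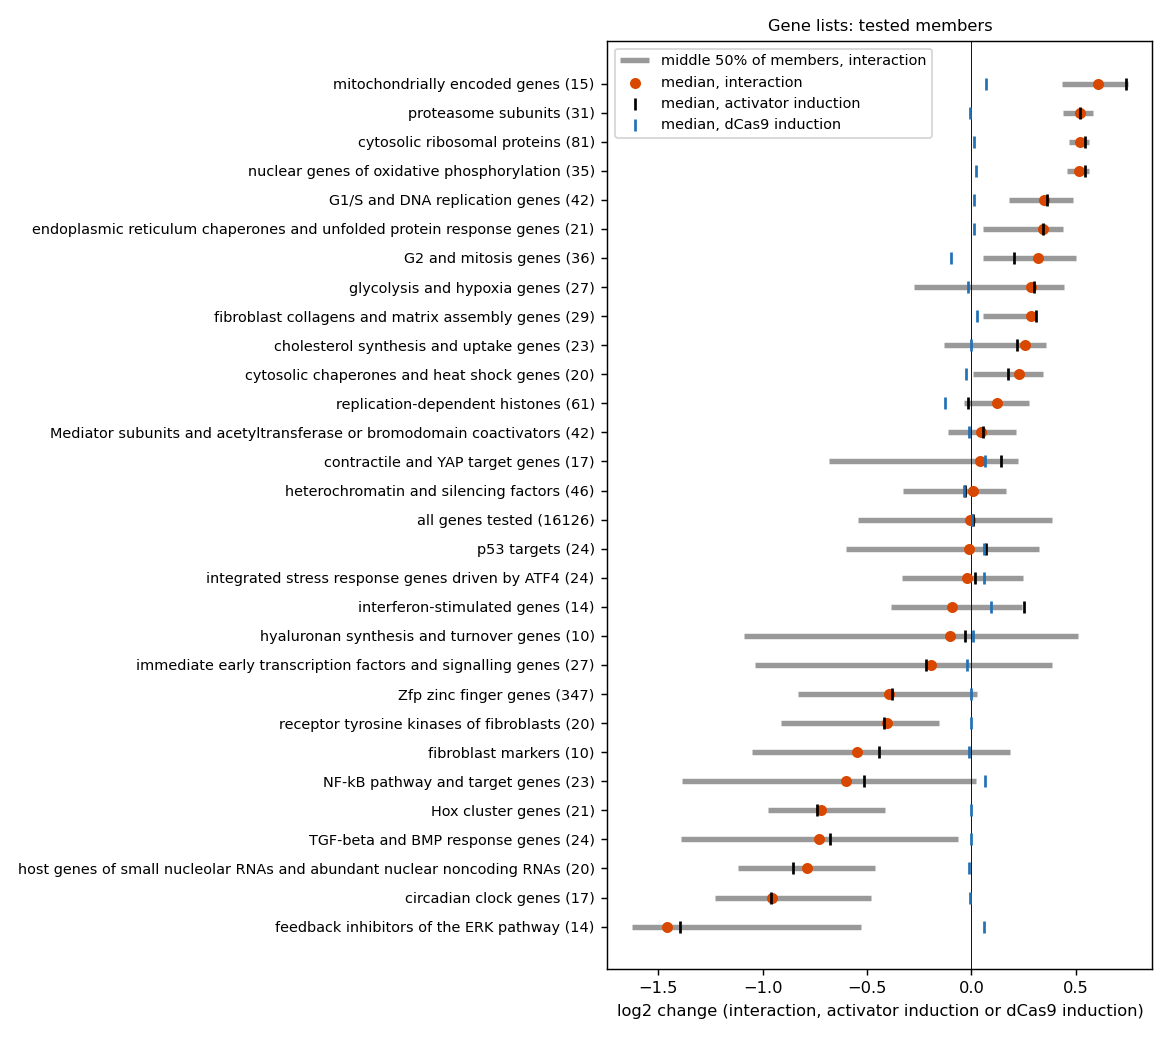
Median interaction (orange), its middle 50% over members (grey bar), and median change in the activator line (black) and the dCas9 line (blue), log2, for the 29 gene lists that are not markers of other cell types or of the germline, with their numbers of tested members. Among these lists the dCas9 medians lie between -0.13 and 0.09, and the interaction medians run from -1.46 for ERK feedback genes to 0.60 for mitochondrially encoded genes.

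Among stress pathways, p53 targets and the integrated stress response had calls in both directions, and chaperone lists had more higher calls. Of 24 p53 targets 9 were higher and 8 lower (median -0.01, which becomes 0.09 with upper quartiles and -0.25 with total counts), with Mdm2 at 0.52 and Pmaip1 at 0.60 against Plk2 at -1.96 and Bbc3 at -1.76. Of 24 genes of the integrated stress response 8 were higher and 8 lower (median -0.02, which becomes 0.09 and -0.26), with the arginine transporter Slc7a3 at 2.98 and Atf3 at 0.61 against Cebpb at -1.30 and Ddit3 at -0.86. Of 21 endoplasmic reticulum chaperones and unfolded protein response genes 15 were higher and 4 lower, with a median of 0.34 that becomes 0.11 with total counts and -0.35 when scaled to mitochondrially encoded genes. The chaperones Pdia3 (0.48) and Hsp90b1 (0.46) were higher, while the sensor kinase Ern1 (-1.04) and its target Xbp1 (-0.88) were lower. Of 20 cytosolic chaperones and heat shock genes 13 were higher and 3 lower, with a median of 0.23 that becomes -0.01 and -0.47 under those scalings. Hsp90aa1 (0.49) and Hsp90ab1 (0.44) were higher, and Hspa1b (-1.16) and Hspb8 (-0.64) lower.

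Genes that define fibroblasts and their matrix moved in both directions. Of 29 collagens and matrix assembly genes 20 were higher and 3 lower, with a median of 0.28 that becomes 0.04 with total counts and -0.41 when scaled to mitochondrially encoded genes. Sparc (0.45) and Dcn (0.55) were higher, and Col6a3 (-0.60) and Loxl1 (-0.23) lower. Of the 10 fibroblast markers tested 3 were higher and 5 lower (median -0.55), with Vim at 0.24 and the mesenchymal factor Twist2 at -1.40. Those counts became 0 and 6 with total counts. Of 10 genes of hyaluronan synthesis and turnover 3 were higher and 5 lower: besides Has2, the hyaluronidase-like Cemip stood at -1.43, while Has3 stood at 2.56 and Tnfaip6 at 0.74, both under 3 CPM in every group. Of 17 contractile and YAP target genes 7 were higher and 5 lower, with smooth muscle actin Acta2 at 0.54 and Tagln at 0.56 against the YAP targets Ankrd1 at -1.88 and Ccn2 at -1.80. That balance turned to 3 higher and 11 lower with total counts, and was 10 and 5 with upper quartiles. Scaled to mitochondrially encoded genes it was 0 and 15, with Acta2 at -0.16 and Tagln at -0.14. Of 23 cholesterol genes 12 were higher and 5 lower, with a median of 0.26 that becomes 0.02 and -0.44 with total counts and scaling to mitochondrially encoded genes. Tm7sf2, a sterol reductase gene, was higher (0.56), and Insig1 (-0.91) and Stard4 (-0.69) were lower. Of 27 glycolysis and hypoxia genes 15 were higher and 7 lower (median 0.29, which becomes 0.05 and -0.41), with Aldoc at 3.73 and Gapdh at 0.53 against Vegfa at -1.56 and Eno2 at -1.25.

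The silencing and activation machinery itself was mixed. Of 46 heterochromatin and silencing factors 13 were higher and 16 lower (median 0.01, which becomes -0.23 with total counts and -0.69 when scaled to mitochondrially encoded genes). With upper quartiles 25 were higher and 13 lower (median 0.12), and with DESeq2 size factors 19 and 16, so the balance of calls turns with the scaling. The lamin B receptor gene Lbr was higher (0.47), and the DNA demethylase gene Tet3 (-1.28) and the methyltransferase gene Dnmt3b (-1.15) were lower. Of 42 Mediator subunits and coactivators 13 were higher and 10 lower (median 0.05, which becomes -0.19 and -0.65, and 0.15 with upper quartiles). Med22 had 100.3, 106 and 99.5 CPM and 97.4, 99.1 and 92.7 CPM in the dCas9 line, 107, 108 and 104 CPM in uninduced activator and 34.9, 35.1 and 34.1 CPM in induced activator libraries (interaction -1.53), with no overlap between the last group and the others. Med20 stood at -0.91, Med10 at 0.69 and Med27 at 0.66.

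Several classes of noncoding models had more lower calls than protein-coding genes. Among 12374 protein-coding genes 34.2% were called higher and 33.9% lower. Among 156 sense-intronic transcripts 66% were lower and 3.85% higher (median -1.08), among 826 TEC models (single loci awaiting experimental support in the annotation) 54% were lower and 12.2% higher (median -0.83), and among 164 snoRNA models 46.3% were lower and 1.83% higher (median -0.82). At a matched mean level of 5 to 20 CPM, 85% of 20 sense-intronic and 71.3% of 157 TEC models were lower against 42.9% of 2612 protein-coding genes. At that level 72.7% of 33 lincRNA and 71.9% of 32 processed transcript models were also lower, but only 2 of 6 snoRNA models. Between 1 and 5 CPM 67.6% of 68 snoRNA models were lower against 24.6% of 1548 protein-coding genes. Position and strand separated the TEC models. Of 610 that lie within a protein-coding gene on the same strand 405 were lower and 26 higher (median -1.06), while the median interaction of those host genes was -0.12. Of 37 that lie within a protein-coding gene on the opposite strand only, 1 was lower and 20 were higher (median 1.45). Of 179 outside protein-coding genes 40 were lower and 55 higher (median 0.20). The splits by position here and below were not matched for level. Models that are low before induction can pass the filter through the induced activator group alone.

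Processed pseudogenes differed by position too. Of 237 inside a protein-coding gene on its own strand 52 were lower, against 3 of 136 on the opposite strand only and 19 of 686 outside. Of 70 miRNA models within a protein-coding gene on the same strand 28 were lower and 1 higher (median -0.95, host genes -0.12). Of 27 outside protein-coding genes 10 were lower and 6 higher (median -1.01). Of 149 snoRNA models within a protein-coding gene on the same strand 63 were lower (median -0.80, host genes 0.24). Of 13 outside protein-coding genes 11 were lower (median -1.67). For miRNA and snoRNA models a lower call was thus not limited to models inside protein-coding genes. Whether the models outside lie within noncoding host genes was not tested. The strand setting of the counting is not given in the sources used here, and counts of such short models can include unspliced RNA of the host gene, a part that was not tested.

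**Figure D5:**
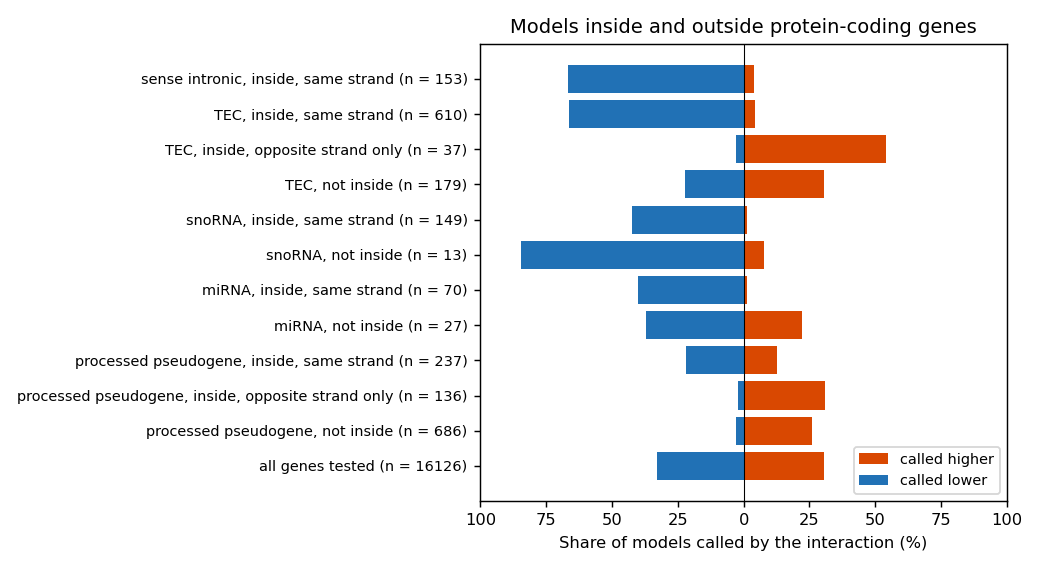
Share of models called lower (blue, to the left) and higher (orange, to the right) by the interaction, by class and by position relative to protein-coding genes, with all genes tested below. TEC models inside a gene on the same strand are more often lower than higher, TEC models on the opposite strand or outside are not, and snoRNA and miRNA models are more often lower than higher both inside and outside.

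Direction also varied with the level before induction. Of 164 genes of at least 500 CPM in the uninduced libraries 127 were higher and 26 lower (median 0.31), and of 2972 genes between 5 and 20 CPM 641 were higher and 1269 lower (median -0.16). Of 2544 genes between 0.1 and 1 CPM 650 were higher and 295 lower, a range in which a fall is harder to detect than a rise. Genes this low can also pass the filter through the induced activator group alone, so the split there partly reflects the filter. Gene length was a weaker divide: among protein-coding genes of at least 5 CPM the median interaction was 0.04 for 889 genes spanning under 5 kb and -0.11 for 443 spanning 200 kb or more.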

How the data were processed

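Total RNA libraries of 12 samples from 2 fibroblast lines were used, 3 in each of 4 groups. Per the labels' protocols, RNA was treated with DNase and made into stranded, rRNA-depleted libraries read as 150 bp pairs. The authors deposited whole-number read counts per gene, and the genome build was mm10 per the submitters' processing notes. Which aligner, counter, annotation and strandedness were used is not given in the sources used here, so counts of overlapping or antisense genes and of near-identical copies are uncertain. Names, classes and coordinates come from GENCODE M21 (GRCm38), in which 47310 of 47937 IDs were found.

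Counts were fitted in edgeR 4.0.16 (R 4.3.3) by the robust quasi-likelihood test, with TMM, filterByExpr (minimum count 10), 1 coefficient per group and 8 residual degrees of freedom. The code was also run on simulated counts in which few genes changed, equally up and down, so that run could not check the scaling. Fold thresholds used glmTreat. Adjusted p-values are Benjamini-Hochberg over all genes tested. DESeq2 1.42.0, limma-voom (limma 3.58.1), other scalings, filters and left-out libraries were alternatives. The genes, lists and rules were chosen with earlier results of these data known. Named genes are the 10 largest interactions each way at 2 CPM or more in all groups, the 6 highest induced genes under 0.1 CPM elsewhere, up to 4 each way called in both lines with opposite or equal signs, and up to 2 each way per list. Of the genes these rules pick, 3 are not reported here. Replicate libraries differed by more than counting noise, and none was merged.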

Additional observations from a re-analysis of the deposited data

Results flagged for a closer look

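The responses of the lines differed by the interaction test for 10214 genes in the edgeR fit, and for the satellite sum by 8.70 on the log2 scale. In 18 genes both responses were called with opposite signs. The 8 of these named above differed between the lines with interactions of 0.65 (Hmmr), 0.70 (Aurka), 0.36 (Cdc20), 0.39 (Peg10), -0.90 (Gpr176), -2.07 (Il4ra), -0.52 (Rbm47) and -0.68 (Ccn1). Induction lasted 6 h in the activator line and 24 h in the dCas9 line, so time and effector cannot be told apart in any of them.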

How the results depend on the processing

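The interaction and activator counts kept within 1.5 times of their values under every alternative run except those named here, and no alternative turned the satellite interaction, which ran from 7.99 to 8.83. Scaling to mitochondrially encoded genes gave 972 higher and 11900 lower interactions (5473 lower by 2-fold or more), 7753 beyond 1.5-fold (6982 lower), 1443 higher and 12882 lower activator calls, and 13 dCas9 calls (2 higher, 11 lower). It turned the interaction of Acta2 (-0.16), Ass1 (-0.56), Atf3 (-0.0896), Atp5a1 (-0.0744), Aurka (-0.00312), Cdc20 (-0.34), Dcn (-0.15), Ddr2 (-0.52), Eno3 (-0.63), Gapdh (-0.16), Hist1h2ac (-0.16), Hist1h2bc (-0.21), Hist1h3d (-0.67), Hmmr (-0.0464), Hsp90aa1 (-0.21), Hsp90ab1 (-0.26), Hsp90b1 (-0.24), Lbr (-0.23), Malat1 (-0.49), Mcm7 (-0.049), Mdm2 (-0.17), Med10 (-0.0101), Med27 (-0.0336), Pdia3 (-0.22), Peg10 (-0.31), Pmaip1 (-0.0946), Prune2 (-0.68), Psmd2 (-0.0526), Rpl37 (-0.0615), Rps2 (-0.0656), Sparc (-0.25), Tagln (-0.14), Tm7sf2 (-0.14), Uqcrc2 (-0.0645) and Vim (-0.46) negative, and the activator change of Ass1 (-0.36), Aurka (-0.21), Cdc20 (-0.57), Eno3 (-0.44), Hmmr (-0.26), Peg10 (-0.50) and Prune2 (-0.56). Total counts gave 2654 higher interactions, 2712 lower by 2-fold or more, 3358 lower beyond 1.5-fold, 3949 higher activator calls and 30 higher dCas9 calls, and turned the interaction of Ass1 (-0.11), Ddr2 (-0.0576), Eno3 (-0.17), Hist1h3d (-0.21), Malat1 (-0.0319), Prune2 (-0.22) and Vim (-0.00196) and the activator change of Cdc20 (-0.0567) and Prune2 (-0.0403). The interaction of Hist2h4 was 0.0309 with DESeq2 size factors, 0.0304 with DESeq2 and 0.0955 with upper quartiles. Over the left-out libraries Hist2h4 ranged from -0.0628 to 0.0378, Hist1h3d from -0.0269 to 0.0619 and Prune2 from -0.00414 to 0.0461. Without the filter the interactions of Hist1h3d and Prune2 were -0.00176 and -0.0124, and list medians minus that of all genes turned for contractile genes (-0.104), heterochromatin factors (-0.14), histones (-0.0252) and Mediator (-0.102). Over the left-out libraries that of heterochromatin factors ranged from -0.00864 to 0.0286 and that of interferon genes from -0.181 to 0.0172.

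A minimum count of 50 left 12172 genes and gave 539 higher and 1178 lower interactions of 2-fold or more and 631 higher beyond 1.5-fold. A required fold of 2 gave 1500 calls, 763 of them lower. dCas9 calls numbered 75 (41 higher, 34 lower) with all 18 libraries fitted and 66 (29 and 37) without the filter, and DESeq2 gave 10 higher and 34 lower. Over the 12 left-out libraries they ranged from 20 to 104 (6 to 56 higher, 13 to 48 lower), interaction calls from 9804 to 10198. Without replicate 1 or 3 of the induced activator they were 68 and 104, and without replicate 1 or 3 of uninduced dCas9 20 and 23. The satellite change in the dCas9 line was called with DESeq2 (-1.68, adjusted p = 2.13e-10), without robust estimation (-1.69, adjusted p = 4.45e-05) and scaled to mitochondrially encoded genes (-1.74, adjusted p = 2.25e-19), and its adjusted p was 0.0818 to 0.528 over the left-out libraries. Correlations of library deviations were -0.08 to 0.12 between same-numbered libraries and -0.13 to 0.13 between differently numbered ones. Same-numbered values lay above the others between the induced groups (0.05 to 0.11) and were all negative within the dCas9 line. Correlations this weak cannot decide whether the numbers pair the samples. With a replicate block within each line or across lines the interaction had 10196 or 10302 calls and the dCas9 response 57 (30 higher) or 69 (33 higher, 36 lower). The cause of these differences was not tested. Depth limits calls among genes under 1 CPM, and 71.9% of genes had a dCas9 95% interval within 1.5-fold either way.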
